A study of Mus musculus with 11 samples.

Results

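The chemokines and chemokine receptors that steer lymphocytes were examined in the choroid plexus (CP), the tissue that makes the cerebrospinal fluid and forms the blood-cerebrospinal fluid barrier, of mice with experimental autoimmune encephalomyelitis (EAE), a model of multiple sclerosis. The set holds 10 genes chosen by name: the interferon-induced ligands Ccl5, Cxcl9 and Cxcl10, the lymphoid ligands Cxcl13, Ccl19 and Cxcl12 with the receptors Ccr7 and Cxcr4, and the pair Ccl20 and Ccr6. Of these, 9 have a probe of their name on the array (12 probes), out of 15946 genes named there. Ccl20 has none, so the ligand of the last pair was not measured.

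Female SJL mice of 6 to 8 weeks received a proteolipid protein (PLP) peptide in Complete Freund's Adjuvant and pertussis toxin, and developed a relapsing-remitting disease. Controls received PBS in the same adjuvant with pertussis toxin on the same schedule, so the adjuvant and the toxin are shared by all groups. Each sample is RNA of the CP of 3 perfused mice, pooled: 3 pools at onset and 3 PBS pools, both of day 14, 3 pools at remission (days 19 to 22) and 2 pools at relapse (days 27 to 31). Remission and relapse pools therefore differ from PBS pools in day as well as in phase, and the 2 cannot be told apart. The sample labels and the methods name different amplification kits, and the labels do not tell which of the beadchips held which pool.

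Chemokines are small secreted proteins that guide cells along their gradients by binding receptors on the cell surface. Interferon gamma, made by activated T and NK cells, induces CXCL9 and CXCL10, which draw activated T cells through CXCR3, and CCL5 draws T cells and monocytes. CXCL13, CCL19 and CXCL12 shape lymphoid tissue: CXCL13 attracts B cells and follicular helper T cells through CXCR5, CCL19 attracts naive T cells and mature dendritic cells through CCR7, and CXCL12 retains and positions leukocytes through CXCR4. CCL20 is made by CP epithelium and binds CCR6 on Th17 cells, a route by which these cells are known to enter the cerebrospinal fluid in EAE.

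The promoters of 4 of these ligands are shown because they belong to members that differed in their readings: Cxcl9, Ccl19 and Cxcl13 rose at onset, and Cxcl10 was never above background. They are the 250 bases before the start in RefSeq (GRCm38.p6), 5′ to 3′ on the strand of the gene: Cxcl9 at chr5:92328080-92328329 and its near neighbour Cxcl10 at chr5:92348890-92349139, Ccl19 at chr4:42756366-42756615 (all 3 on the minus strand), and Cxcl13 at chr5:95956689-95956938 (plus strand). With protein-coding genes ordered by their lowest coordinate, only Art3 comes between Cxcl9 and Cxcl10. Capitals mark an interferon-stimulated response element in Ccl19 and Cxcl10 and an NF-kappa B type motif in Cxcl9 and Cxcl10.
Cxcl9: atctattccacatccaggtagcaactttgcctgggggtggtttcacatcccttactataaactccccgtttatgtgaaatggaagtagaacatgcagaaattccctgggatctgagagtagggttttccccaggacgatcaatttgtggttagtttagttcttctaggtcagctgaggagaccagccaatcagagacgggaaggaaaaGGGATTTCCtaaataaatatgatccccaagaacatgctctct
Cxcl10: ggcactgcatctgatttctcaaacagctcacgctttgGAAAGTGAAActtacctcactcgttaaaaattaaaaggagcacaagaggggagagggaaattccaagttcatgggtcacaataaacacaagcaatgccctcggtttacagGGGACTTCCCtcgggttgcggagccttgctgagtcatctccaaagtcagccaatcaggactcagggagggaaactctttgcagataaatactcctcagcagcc
Ccl19: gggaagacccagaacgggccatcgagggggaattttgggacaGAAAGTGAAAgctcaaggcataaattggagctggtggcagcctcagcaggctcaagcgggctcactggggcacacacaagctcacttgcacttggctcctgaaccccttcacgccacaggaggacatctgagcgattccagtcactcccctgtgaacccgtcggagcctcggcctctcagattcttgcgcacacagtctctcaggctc
Cxcl13: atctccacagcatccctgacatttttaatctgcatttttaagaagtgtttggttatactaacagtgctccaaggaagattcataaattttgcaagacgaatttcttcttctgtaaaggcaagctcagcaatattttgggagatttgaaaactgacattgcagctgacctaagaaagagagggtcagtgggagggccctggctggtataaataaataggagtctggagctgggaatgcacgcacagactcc

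Both strands were searched for the interferon gamma activated site TTCNNNGAA, which is its own reverse complement in form, for the response element GAAANNGAAA, for the NF-kappa B motif GGGANTTTCC and for its shortened form GGGANNTCC. Of 32851 promoter windows in the table, 7.02% hold the activated site, 2.98% the response element, 0.36% the NF-kappa B motif and 3.59% its shortened form. The element GAAAGTGAAA lies 208 to 199 bases before the start of Ccl19 and 213 to 204 bases before that of Cxcl10. GGGATTTCC lies 42 to 34 bases before the start of Cxcl9. In Cxcl10 the capitals GGGACTTCCC hold 2 overlapping matches of the shortened form, 1 on each strand, which together span 103 to 94 bases before the start. The windows of Cxcl13, Cxcl12, Cxcr4 and Ccl20 hold none of the 4 motifs. Those of Ccr6 hold 2 activated sites and, at the other start, a pair of overlapping shortened NF-kappa B matches. Windows were found for 8 of the 10 members, without Ccl5 and Ccr7. A match is a description of letters, and no factor was measured.

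The values below are log2 signals after quantile normalization. A probe counts as above background in a pool where its detection p against the negative controls of that array is under 0.01, and a gene is called where limma's adjusted p over 23978 probes is under 0.05. A level is never set against the level of another probe. The arrays had median signals of 256.6 (PBS pool 3) to 377.5 (PBS pool 2) and 8687 to 10221 probes above background, and choroid plexus epithelium markers were above background for 6 of 6 measured genes with none called in any comparison. Onset pool 3 and remission pool 3 gave nearly the same readings: among 10012 probes detected in both, 0 were apart by over 1 log2 unit, where the other 54 pairs of pools had 7 to 266 such probes, and the SD of the log2 differences between them was 0.0939. Calls of members that involve the remission pools are therefore also given without both pools. Such calls of other genes, the cell type markers among them, are not.

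At onset the CP held more mRNA of nearly the whole measurable set. Of 9 members with a probe, 7 were above background in at least 1 pool, and 6 rose against PBS: Ccl5, Cxcl9, Cxcl13, Ccl19, Ccr7 and Cxcl12. Over all 23978 probes 1.06% were called higher in the same comparison. Every onset pool lay above every PBS pool for these 6 members, against 7.19% of all probes. The median log2 fold change over the 9 members was 0.94, against -0.02 over all probes. That median was the value of Ccr7, which was above background in no PBS pool and was at least 1.08-fold higher. Cxcr4 was the measurable member that did not pass the test. In pooled tissue, more cells of a type and more RNA per cell cannot be told apart.

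**Figure D1:**
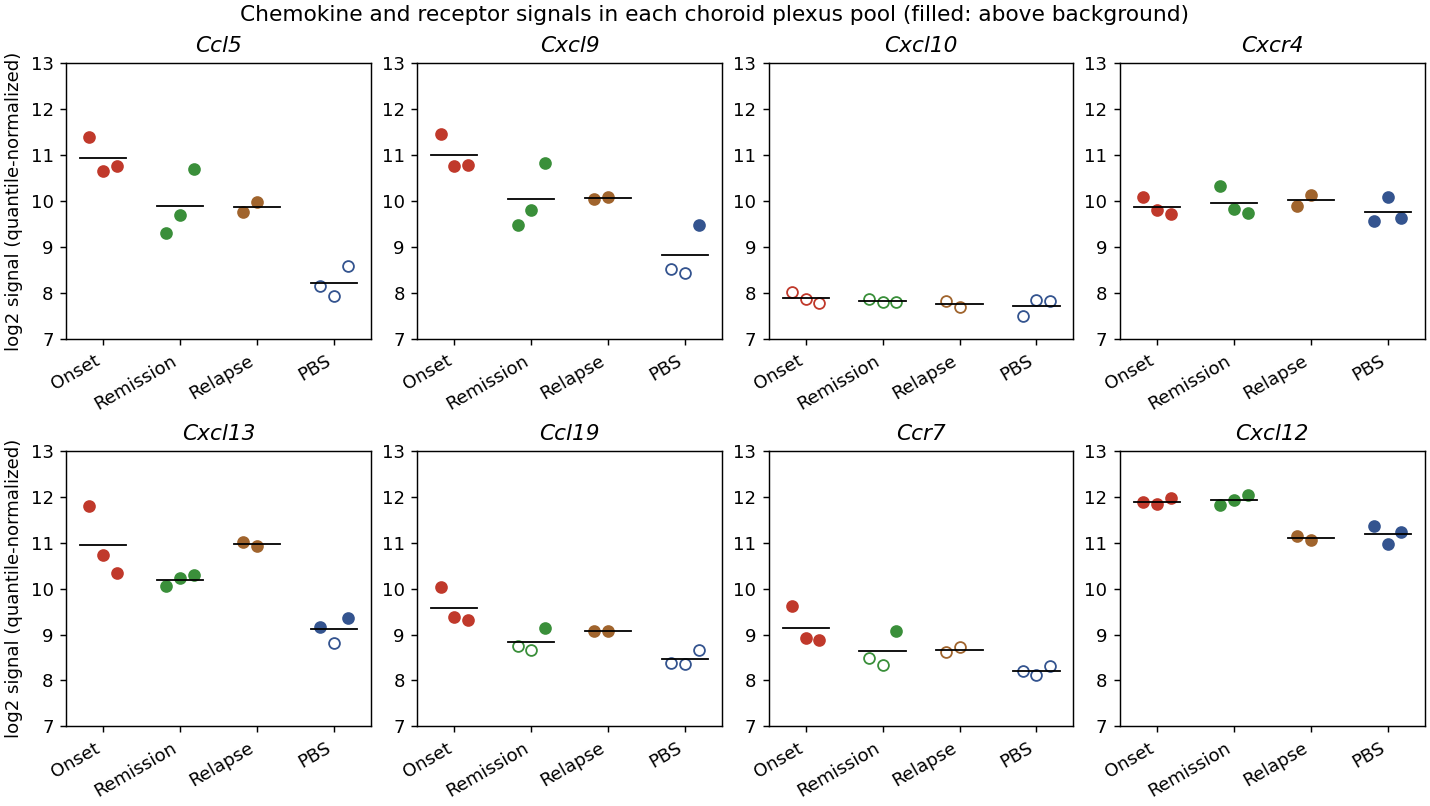
Log2 signal (quantile-normalized) of 8 members in each pool, by group; filled points are above background, open points are not, and lines are group means. Ccl5, Cxcl9, Cxcl13, Ccl19, Ccr7 and Cxcl12 lie higher in all 3 onset pools than in all 3 PBS pools, Cxcl12 at relapse lies with PBS, and Cxcl10 is open in all 11 pools.

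Ccl5, which recruits T cells and monocytes, rose at onset and at remission. Its log2 signal was 11.40, 10.66 and 10.77 at onset, 9.30, 9.70 and 10.69 at remission, 9.75 and 9.97 at relapse, and 8.14, 7.94 and 8.59 in PBS. All 8 EAE pools were above background and no PBS pool was, and no EAE pool overlapped PBS. Against PBS the log2 fold change was 2.72 ± 0.30 at onset (SE, adjusted p = 0.00351, at least 3.72-fold higher), 1.67 ± 0.30 at remission (adjusted p = 0.0483, at least 1.80-fold higher) and 1.64 ± 0.33 at relapse (adjusted p = 0.247). The bounds replace each PBS array by the lowest signal it could tell from background. The remission call did not hold without onset pool 3 and remission pool 3 (1.26, adjusted p = 0.168) or with the pool number as a replicate block (adjusted p = 0.0618), while without the 2 pools the onset value did (2.80, adjusted p = 0.00129).

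Cxcl9, the interferon gamma-induced ligand of CXCR3, was also highest at onset. Its log2 signal was 11.45, 10.76 and 10.78 at onset, 9.48, 9.80 and 10.83 at remission, 10.04 and 10.09 at relapse, and 8.53, 8.44 and 9.48 in PBS, where only pool 3 was above background. Every EAE pool lay above every PBS pool, though remission pool 1 and PBS pool 3 had the same value at 2 decimals. Cxcl9 rose 4.53-fold at onset (95% confidence interval 2.76 to 7.43, adjusted p = 0.0107). At remission (1.22 ± 0.33, SE, adjusted p = 0.258) and relapse (1.25 ± 0.37, adjusted p = 0.687) the log2 fold change did not pass. Without PBS pool 1 or PBS pool 2 the adjusted p at onset was 0.0625 and 0.0501.

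Cxcl10, the second ligand of CXCR3, was not above background in any of the 11 pools, with detection p-values between 0.322 and 0.989 and log2 signals of 7.50 to 8.01, so no fold is given. Neither Cxcr3 nor Cxcl11, another ligand of this receptor, was above background in a pool, and the same held for Ccr1 and Ccr3, receptors of CCL5.

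Across the 11 pools Ccl5 and Cxcl9 ran closely together (Pearson's r = 0.984, Spearman's rho = 0.991), a description of pools that share phases, arrays and tissue composition. Onset pool 1 was the highest pool for both, and remission pool 3 lay near the onset pools for both, while the other 2 remission pools lay near relapse. From 19 measured genes of interferon gamma signaling and response, 5 were called higher at onset: Irf8, a transcription factor of the myeloid lineage (0.71 ± 0.10, SE, adjusted p = 0.0087), the immunoproteasome subunits Psmb8 (0.52 ± 0.09, adjusted p = 0.016) and Psmb9 (0.88 ± 0.14, adjusted p = 0.0122), and the interferon-induced GTPases Gbp3 (1.13 ± 0.24, adjusted p = 0.0458) and Igtp (1.09 ± 0.21, adjusted p = 0.0241). Leaving out 1 pool at a time, Gbp3 passed in 3 of 11 fits (adjusted p up to 0.181) and Igtp in 6 of 11 (up to 0.113). Ifng itself was not above background in a pool. The median log2 fold change over the 19 genes was 0.32 at onset, 0.22 at remission and 0.01 at relapse, against -0.02, -0.01 and -0.01 over all probes. At relapse Irf8 (-0.66 ± 0.11, adjusted p = 0.0363) and Psmb9 (-0.88 ± 0.16, adjusted p = 0.0423) were lower than at onset. Ccl5 (-1.08 ± 0.33, adjusted p = 0.251) and Cxcl9 (-0.93 ± 0.37, adjusted p = 0.425) did not pass that test. Every relapse pool of Ccl5 and Cxcl9 lay below every onset pool, and the share of all probes that did so was not counted. The calls of Irf8 and Psmb9 at relapse against onset each held in 5 of the 11 fits that leave out 1 pool, with adjusted p up to 0.38 and 0.405.

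Cxcl13, the B cell chemoattractant of lymphoid follicles, had about the same mean at relapse and at onset. Its log2 signal was 11.79, 10.73 and 10.34 at onset, 10.05, 10.22 and 10.29 at remission, 11.01 and 10.93 at relapse, and 9.16, 8.82 and 9.35 in PBS. All EAE pools lay above all PBS pools, the 3 remission pools lay below the onset and relapse pools, and the 2 relapse pools fell within the wide onset range. Cxcl13 rose 3.58-fold at onset (95% confidence interval 2.38 to 5.38, adjusted p = 0.0103). The 3.63-fold difference at relapse was of the same size and did not pass (2.30 to 5.73, adjusted p = 0.0862), nor did the 2.11-fold difference at remission (1.40 to 3.17, adjusted p = 0.206). Without PBS pool 1 or PBS pool 2 the adjusted p at onset was 0.0557 and 0.0501.

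The phases themselves could not be ordered for Cxcl13. Relapse minus onset was 0.02 on the log2 scale (95% confidence interval -0.64 to 0.68), relapse minus remission was 0.79 ± 0.30 (SE, adjusted p = 0.863) and remission minus onset was -0.77 ± 0.27 (adjusted p = 1). Onset pool 1 set much of the onset mean: without it relapse minus onset was 0.44, and without onset pool 3 it was -0.29, with adjusted p of 0.91 for the second.

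Cxcr5, the receptor of CXCL13, was not above background in a pool, and neither were Cd79a, Cd79b, Pax5, Blk or Jchain, the 5 B cell and plasma cell markers with a probe. Of 11 measured genes of lymphotoxin and related TNF family signaling, which induces lymphoid chemokines, 1 was called at onset, the receptor Tnfrsf1a, none at remission and none at relapse. Lta, Ltb, Tnfsf14, Tnf, Tnfsf11 and Tnfsf13b were below background in all pools. The medians of the log2 fold changes of the 11 genes were 0.17 at onset, 0.10 at remission and 0.01 at relapse. They include these genes without a reading above background.

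Ccl19, a ligand of CCR7 made by stromal cells of T cell zones, rose at onset. Its log2 signal was 10.03, 9.37 and 9.32 at onset, 8.74, 8.66 and 9.14 at remission, 9.07 and 9.07 at relapse, and 8.39, 8.35 and 8.67 in PBS. All onset and relapse pools, 1 remission pool and no PBS pool were above background. The log2 fold change at onset was 1.10 ± 0.18 (SE, adjusted p = 0.0121, at least 1.44-fold higher), and at remission (0.38 ± 0.18, adjusted p = 0.72) and relapse (0.60 ± 0.20, adjusted p = 0.777) it did not pass. Remission minus onset (-0.73 ± 0.18, adjusted p = 1) and relapse minus onset (-0.50 ± 0.20, adjusted p = 0.41) did not pass either. The remission pools and the relapse pools all lay below the onset pools, and the shares of all probes that did so were not counted. Without PBS pool 1 or PBS pool 2 the adjusted p at onset was 0.067 and 0.0558. Markers of fibroblasts and mural cells, which had a probe for 9 genes with Pdgfra called at onset and none later, summed to 45784 to 52487 at onset, 42203 to 46810 at remission, 39089 to 42730 at relapse and 30699 to 36056 in PBS. Their part in the Ccl19 result was not tested.

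Ccr7, the receptor by which naive and central memory T cells and dendritic cells follow CCL19, gave the weakest of the onset calls. Its log2 signal was 9.63, 8.93 and 8.89 at onset, 8.48, 8.34 and 9.08 at remission, 8.61 and 8.72 at relapse, and 8.20, 8.11 and 8.32 in PBS. The onset pools and remission pool 3 were above background, and the relapse and PBS pools were not. The log2 fold change at onset was 0.94 ± 0.20 (SE, adjusted p = 0.0432, at least 1.08-fold higher). That bound is close to no change, and without onset pool 1 the value was 0.70 with an adjusted p of 0.132. Ccr7 stayed past the threshold in 2 of the 11 fits that leave out 1 pool and in 5 of 10 other alternatives. Ccl19 and Ccr7 ran together over the 11 pools (r = 0.971, rho = 0.955), under the same limits as above. Ccl19 was above background in 6 pools and Ccr7 in 4, so the correlation includes readings not above background. Ccl21a, the other ligand of CCR7, which has near-identical copies in the mouse that a probe may not separate, was above background in 1 onset pool and no other, so no fold is given. Ccl21c, such a copy, was above background in 3 onset pools, 1 remission pool, 1 relapse pool and 1 PBS pool, and its onset pools overlapped PBS (0.46 ± 0.20, SE, adjusted p = 0.466).

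**Figure D2:**
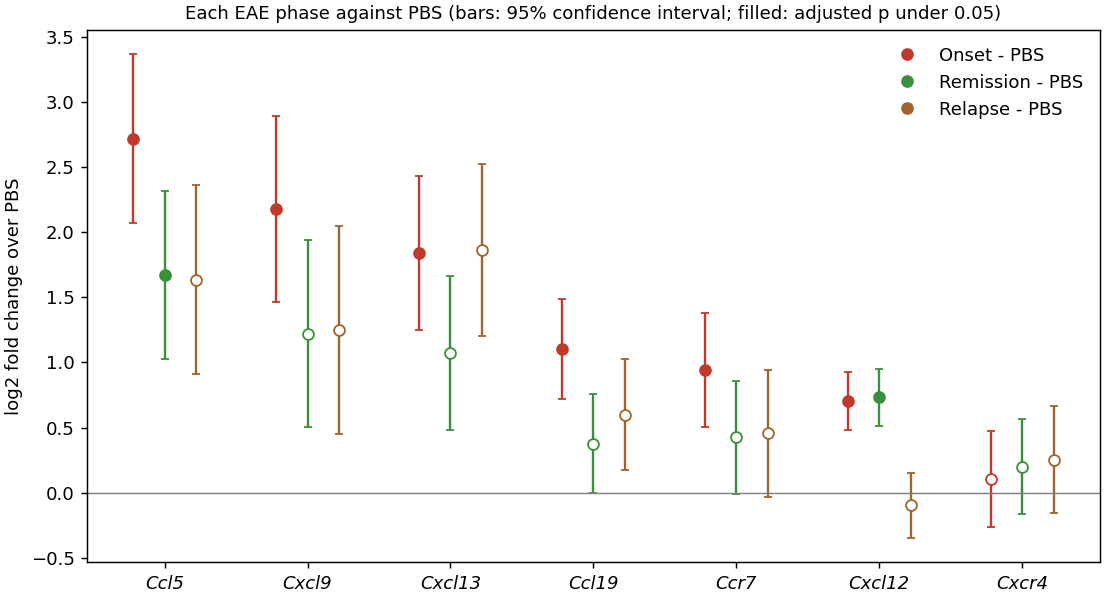
Log2 fold change over PBS (y axis) of the 7 measurable members at onset, remission and relapse, with 95% confidence intervals; filled points have an adjusted p under 0.05. Onset has 6 filled points, remission 2 (Ccl5 and Cxcl12) and relapse none, and Cxcl12 at relapse is the only point below 0.

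Cxcl12, made by endothelial and other stromal cells, followed another course: it was raised at onset and remission and at the PBS level at relapse. The probe with the highest signal read 11.88, 11.84 and 11.96 at onset, 11.81, 11.92 and 12.04 at remission, 11.14 and 11.05 at relapse, and 11.36, 10.96 and 11.24 in PBS, above background in all 11 pools. The onset and remission pools overlapped each other, the relapse and PBS pools overlapped each other, and no pool of the first 2 groups reached the others. Cxcl12 rose 1.63-fold at onset (95% confidence interval 1.40 to 1.90, adjusted p = 0.00992) and 1.66-fold at remission (1.42 to 1.94, adjusted p = 0.0247). The remission call did not hold without onset pool 3 and remission pool 3 (0.67 on the log2 scale, adjusted p = 0.131), without PBS pool 2 (0.62, adjusted p = 0.057) or with neqc background correction (0.80, adjusted p = 0.0516), and stayed past the threshold in 8 of the 11 fits that leave out 1 pool. At relapse the difference from PBS was -0.10 on the log2 scale (-0.35 to 0.15, adjusted p = 0.972).

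The later phase differed from the earlier ones for Cxcl12 by direct tests. Relapse was lower than onset by a log2 difference of -0.80 ± 0.11 (SE, adjusted p = 0.025) and lower than remission by -0.83 ± 0.11 (adjusted p = 0.0328). Over all probes 0.196% and 0.0292% were called lower in these comparisons. Without onset pool 3 and remission pool 3 the first difference was -0.77 (adjusted p = 0.0355) and the second -0.77 (adjusted p = 0.293). Leaving out any single pool kept the difference from onset between -0.85 and -0.76, with adjusted p of 0.00649 to 0.204, past the threshold in 7 of 11 cases. The difference from remission passed in 4 of these 11 fits (adjusted p of 0.00853 to 0.321) and in 5 of 10 other alternatives, and not with the replicate block (adjusted p = 0.0792). The relapse group has 2 pools, and without either of them the adjusted p was over 0.05.

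The probes of Cxcl12 did not agree. A second probe, of the transcript NM_021704, read 9.22 to 9.31 at onset, 9.10 to 9.34 at remission, 8.94 and 9.26 at relapse, and 8.53 to 9.29 in PBS. Its groups overlapped throughout, with 0.31 ± 0.16 at onset (SE, adjusted p = 0.569) and relapse minus onset of -0.15 ± 0.17 (adjusted p = 0.888). The remaining probe, of the same transcript, was never above background. The first probe is assigned to NM_013655, so the course of Cxcl12 described here is that of 1 probe.

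Over 6619 genes above background in all pools, the genes whose log2 signal was most like that of Cxcl12 were Robo4, an endothelial guidance receptor (r = 0.994, rho = 0.991), Tgfbi, an extracellular matrix protein (r = 0.992, rho = 0.991), and Emcn, an endothelial sialomucin (r = 0.976, rho = 0.936), over 11 pools that share groups and tissue composition. Emcn read 12.75, 12.83 and 13.03 at onset, 12.86, 13.01 and 13.05 at remission, 12.11 and 12.09 at relapse, and 12.50, 12.15 and 12.42 in PBS. Relapse was lower than onset for Emcn by -0.77 ± 0.12 (SE, adjusted p = 0.0258) and lower than remission by -0.87 ± 0.12 (adjusted p = 0.0284), each in 6 of the 11 fits that leave out 1 pool. Of 9 endothelial markers with a probe, 4 were called higher at onset (Flt1, Tek, Emcn and Esam), 4 at remission (Cdh5, Flt1, Tek and Emcn) and none at relapse. Their summed linear signal was 19994 to 24488 at onset, 20142 to 25653 at remission, 12358 to 13291 at relapse and 12259 to 14805 in PBS. Kdr, a defining marker, was never above background. The part of the endothelial markers in the Cxcl12 result was not tested.

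Cxcr4, the receptor of CXCL12 on leukocytes, was above background in all 11 pools and did not follow its ligand. It read 10.09, 9.80 and 9.72 at onset, 10.32, 9.83 and 9.74 at remission, 9.89 and 10.14 at relapse, and 9.57, 10.08 and 9.64 in PBS. All groups overlapped. The log2 fold change against PBS was 0.11 at onset (95% confidence interval -0.26 to 0.47, adjusted p = 0.925), 0.20 at remission (-0.17 to 0.56, adjusted p = 0.904) and 0.25 at relapse (-0.16 to 0.66, adjusted p = 0.942). The intervals do not show that it stayed the same. Its correlation with Cxcl12 over the pools was -0.124 and with the other members 0.0325 to 0.302. Its most like genes were Snrpb, a spliceosome protein (r = 0.927), Casc1 (r = 0.915) and Txlna, a taxilin (r = 0.908). Ackr3, the scavenging receptor of CXCL12, differed from PBS by 0.02 ± 0.17 at onset (SE, adjusted p = 0.988).

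For the pair Ccl20 and Ccr6 the arrays gave no level. The 2 probes of Ccr6, the receptor of Th17 cells, were above background in none of the 11 pools, with detection p-values of 0.0956 to 0.989 and log2 signals of 7.50 to 8.25. Of 10 measured genes of the interleukin 17 axis, Il17a, Il17f, Il17ra, Il22, Il23a and Il6 were below background in all pools. Nfkbiz, a nuclear regulator downstream of interleukin 17, and Il1b were called higher at onset, none was at remission or relapse, and Nfkbiz was lower at relapse than at onset. The arrays thus give no measure of either side of this pair.

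At remission 2 members were called, Ccl5 and Cxcl12, and 0.204% of all probes were called higher. For 5 members all remission pools lay above all PBS pools, against 5.67% of probes, and the median log2 fold change was 0.42, against -0.01 over all probes. That median was the value of Ccr7, which was above background in 1 remission pool and no PBS pool. No member was called without onset pool 3 and remission pool 3. At relapse no member was called by limma, and 0.0125% of probes were called higher. At an unadjusted p under 0.05, 4 members were higher, and the share of all probes at that looser limit was not counted. For 5 members, Ccr7 among them, both relapse pools lay above all PBS pools, against 10.7% of probes, and the median was 0.46, against -0.01. The relapse median was again the value of Ccr7, which was above background in no relapse pool and no PBS pool. It is therefore not a change between readings above background. A fit with array weights called Ccl5 and Cxcl13 at relapse, as did a fit of only the relapse and PBS pools. The comparisons with PBS share the PBS pools, so they are not independent of each other.

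**Figure D3:**
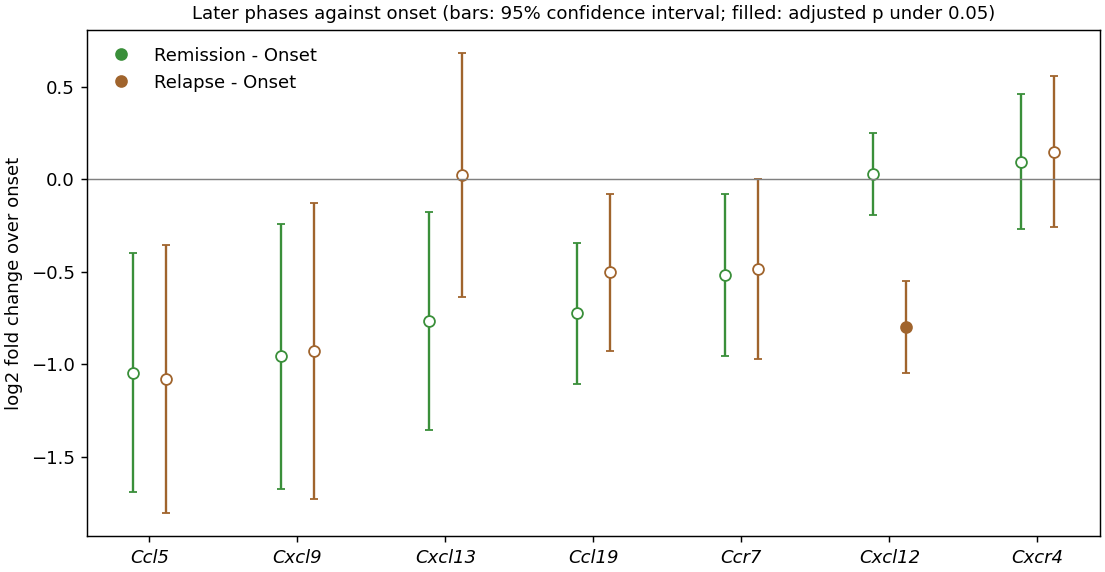
Log2 fold change over onset (y axis) of the 7 measurable members at remission and at relapse, with 95% confidence intervals; the filled point has an adjusted p under 0.05. Cxcl12 at relapse is the filled point (-0.80), and Cxcl13 at relapse lies at 0.02 with an interval of -0.64 to 0.68.

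Set against onset, no member was called at remission (0% of probes were called lower) and 1 at relapse, Cxcl12. At an unadjusted p under 0.05, 5 members were lower at remission and 4 at relapse. All remission pools lay below all onset pools for Cxcl13 and Ccl19 among the measurable members, and all relapse pools did so for Ccl5, Cxcl9, Ccl19, Ccr7 and Cxcl12. The shares of all probes at that unadjusted limit, or with all pools below onset, were not counted. These counts of members therefore only describe the readings. In the first comparison the result for Ccl5 depended on remission pool 3. Without it Ccl5 alone was called, with a remission minus onset of -1.45 (adjusted p = 0.0272), against -1.05 with it. Without onset pool 3 and remission pool 3 together Ccl5 was at -1.53 (adjusted p = 0.0647) and no member was called.

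T cell markers also differed between EAE and PBS pools. Of 9 T cell markers with a probe, 4 were called higher at onset (Cd3d, Cd3e, Cd3g and Il7r), 2 at remission (Cd3e and Il7r) and none at relapse, and 4, Cd4, Cd8a, Cd2 and Cd5, were never above background. The summed T cell signal was 3682 to 4437 at onset, 3621 to 4003 at remission, 4055 to 4294 at relapse and 2432 to 2996 in PBS. Cd3e, a chain of the T cell receptor complex, read 9.58, 9.10 and 9.07 at onset, 9.29, 9.35 and 9.13 at remission, 9.30 and 9.52 at relapse, and 8.18, 8.06 and 8.57 in PBS. It lay above PBS in every EAE pool, with 0.98 ± 0.15 at onset (SE, adjusted p = 0.0107, at least 1.15-fold higher), 0.99 ± 0.15 at remission (adjusted p = 0.0308, at least 1.16-fold higher) and 1.14 ± 0.17 at relapse (adjusted p = 0.08). The onset call held in 9 of the 11 fits that leave out 1 pool and the remission call in 4.

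Markers of other leukocytes differed between the phases too. Of 9 neutrophil markers 6 were called higher at onset, and their summed signal was 16320 to 30586 at onset, 8233 to 17035 at remission, 4330 to 4674 at relapse and 3832 to 7559 in PBS. Cxcr2 among them was never above background. Macrophage and monocyte markers summed to 8345 to 11160 at onset, 7747 to 9169 at remission, 7693 to 7930 at relapse and 4091 to 6828 in PBS, with Lyz2 and Cd14 of 7 genes called at onset, Mrc1 at remission, and Ccr2 and Itgam never above background. None of 7 NK markers and 1 of 7 dendritic cell markers was above background in a pool. Markers of astrocytes, neurons, erythroid cells and lymphatic endothelium gave no call in any comparison. The summed astrocyte signal was 13731 to 16645 at onset, 11928 to 14932 at remission, 16300 to 17669 at relapse and 11261 to 14815 in PBS, so both relapse pools lay above PBS. The summed erythroid signal was 3142 to 7473 at onset, 3401 to 8762 at remission, 2392 to 3152 at relapse and 3459 to 17330 in PBS, so both relapse pools lay below PBS, with a median log2 fold change of -1.18 over 3 genes. Oligodendrocyte markers, of which none of 4 was called, summed to 4845 to 10468 at onset, 5772 to 10649 at remission, 10501 to 12093 at relapse and 3892 to 8672 in PBS. The part of these cells in the chemokine results was not tested.

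**Figure D4:**
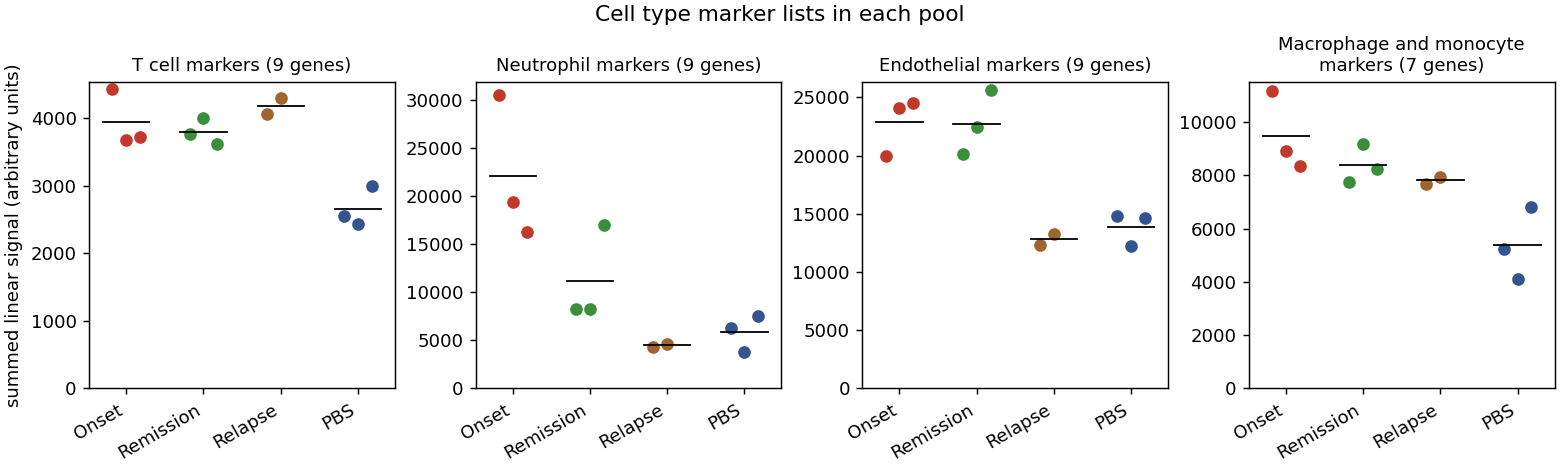
Summed linear signal (arbitrary units) of 4 marker lists in each pool, by group, with group means as lines. T cell and macrophage markers lie above PBS in all 8 EAE pools, while neutrophil and endothelial markers lie above PBS in all onset and remission pools and with PBS at relapse.

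Few of the remaining chemokine genes were called, and most were not above background in any pool. Of 13 further genes that act on the same ligands or receptors (receptors, other ligands, scavengers and the protease Dpp4), 6 were above background in at least 1 pool. None was called in any comparison with PBS. Their median log2 fold change at onset was 0.13, which includes the genes never above background. Ackr1, the decoy receptor of venular endothelium that carries CCL5 and CXC ligands across vessels, came nearest: it read 10.60, 10.06 and 9.92 at onset, 8.89, 9.22 and 9.86 at remission, 8.81 and 9.02 at relapse, and 9.23, 8.41 and 9.40 in PBS. All onset pools lay above PBS, by 1.18 ± 0.27 (SE, adjusted p = 0.0621). Of 28 other ligands only Cxcl1, a neutrophil attractant, was called at onset, and of 12 other receptors only Ccrl2, an atypical receptor (0.42 ± 0.09, adjusted p = 0.0436). The Ccrl2 call held in 3 of the 11 fits that leave out 1 pool and in 5 of 9 other alternatives. None of these 40 genes was called at remission or relapse against PBS. Only 11 of the ligands and 2 of the receptors were above background in at least 1 pool, so the others gave no level.

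Cxcl1 rose at onset and was at the PBS level at relapse. It read 11.48, 10.73 and 11.27 at onset, 10.74, 10.18 and 11.29 at remission, 9.47 and 9.19 at relapse, and 9.56, 9.32 and 10.10 in PBS, so that relapse lay with PBS. It rose 2.82-fold at onset (95% confidence interval 1.89 to 4.22, adjusted p = 0.0179) and was lower at relapse than at onset by a log2 difference of -1.82 ± 0.30 (SE, adjusted p = 0.0321). Leaving out 1 pool at a time, the first call held in 7 of 11 fits and the second in 6 of 11.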

How the data were processed

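RNA of 11 pools of CP was hybridised to Illumina MouseRef-8 beadchips, 1 array per pool. The deposited table, made by the authors in BeadStudio, holds linear, unnormalized probe intensities, and a detection p-value of every probe on every array was deposited beside them. A deposited table of log2 values, quantile-normalized by the authors, served as an alternative and differs from the values used here by at most 0.0888.

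Signals were log2-transformed and quantile-normalized in R 4.3.3 and tested with limma 3.58.1, two-sided: 23978 probes (5 duplicates left out), 1 mean per group and all 4 groups in each fit, with Benjamini-Hochberg adjustment over all probes in each comparison and a threshold of 0.05. The prior had 5.53 degrees of freedom. This follows the methods of the study, which name quantile normalization, limma and a false discovery rate. The study describes the arrays as a single experiment, so p-values measure the spread between its pools. The labels do not say that a pool number marks a shared batch. Deviations from the group means of same-numbered pools correlated at 0.26 (the near-identical onset pool 3 and remission pool 3), 0.329 and 0.463 between onset and remission. All were over the 0.1 taken as pairing. Between the other groups they correlated at -0.586 to 0.465, and no 2 groups met that limit in every pair. Pools of different numbers correlated at -0.37 to 0.137 between onset and remission, and at up to 0.645 elsewhere (onset pool 2 with PBS pool 3). A value over 0.1 therefore does not show that pool numbers mark pairs. Intensities give no counts, and the number of arrays limits the precision.

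Gene names come from the platform table (20917 probes with 1 gene, 1 with several, 3060 with none). For a gene with several probes, the one of highest mean signal was used, and all probes of the members are reported. A fold against a group with no pool above background is a lower bound, taken against the lowest signal above background on each array. Named genes are the members, their partners, inducers and cell markers, other chemokine genes where called, and the 3 genes most like each member that was above background in all pools. Members and lists were chosen with earlier results of these data known. Promoters and start sites are from RefSeq. The fits were tested on simulated data. Every column of values was mapped to a sample (0 left over).

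The results were recomputed from the authors' normalized values, with neqc background correction (offset 16), with scaling to the median, without dim probes (kept if above background in at least 3 pools), in fits of 2 groups alone, with a replicate block, with array weights, with a trended robust prior, with 1 probe per gene, at a detection p of 0.05, leaving out each pool in turn, and leaving out onset pool 3 and remission pool 3.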

Additional observations from a re-analysis of the deposited data

Results flagged for a closer look

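Cxcl12 is singled out because its difference from PBS changed between phases by a direct test. Relapse minus onset was -0.802 on the log2 scale (limma, adjusted p = 0.025) and relapse minus remission was -0.829 (adjusted p = 0.0328), with both relapse pools below all 6 onset and remission pools. The second call was lost without onset pool 3 and remission pool 3 (adjusted p = 0.293), with neqc background correction (0.0635) and with the replicate block (0.0792), and held in 4 of the 11 fits that leave out 1 pool, where the first held in 7. A second probe of the gene, for another transcript, had overlapping groups and a relapse minus onset of -0.15 (adjusted p = 0.888). Endothelial markers were lower at relapse in the same pools, and their part was not tested.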

How the results depend on the processing

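At onset 6 members were called, and 4 to 7 under the alternatives that keep all pools or leave out onset pool 3 and remission pool 3 together; leaving out 1 pool gave 2 to 6, the lowest (Ccl5 and Cxcl12) without PBS pool 1 or 2. At remission 2 were called, 0 with neqc or without onset pool 3 and remission pool 3 together, 1 with median scaling, dim probes left out, the 2 groups alone, the replicate block or a trended robust prior, 4 with array weights, and 0 to 3 leaving out 1 pool. At relapse 0 were called, 2 with the 2 groups alone or array weights, and 0 to 1 leaving out 1 pool. Remission against onset gave 0, and 0 to 1 leaving out 1 pool. Relapse against onset gave 1, and 0 to 1 leaving out 1 pool. Relapse against remission gave 1, but 0 with neqc, median scaling, the 2 groups alone, the replicate block or without onset pool 3 and remission pool 3 together, and 0 to 1 leaving out 1 pool. Cxcl13 at relapse minus onset turned negative with median scaling (-0.0851), with the replicate block (-0.0225) and without onset pool 3 and remission pool 3 (-0.29), and ranged from -0.29 to 0.44 leaving out 1 pool. Cxcr4 at onset ranged from -0.00615 to 0.266 leaving out 1 pool. The cause of these changes was not tested.

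With the replicate block the calls of Ccr7 at onset (adjusted p = 0.0554), Ccl5 at remission (0.0618) and Cxcl12 at relapse against remission (0.0792) were lost, and no other call of a member changed; remission against onset, the 1 comparison whose pool numbers met the criterion for pairing, had 0 members called with and without it. A block for the beadchip was not run, since the labels do not tell which pool was on which chip. At a detection p of 0.05 Ccl19 was above background in 10 pools and Ccr7 in 8, against 6 and 4 at 0.01. Cxcl10 and Ccr6 were above background in no pool at either limit.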
